A study of Mus musculus with 4 samples.

Results

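Osteoblast-like cells were 1333 of the 39266 cells that passed the filter on cells, and of 50625 barcodes in all, in 4 single-cell RNA libraries from mouse digits. The mice were adult wild-type FVB/NJ, 8 weeks old, and the labels give each library as a pool of males and females with no treatment other than amputation. The tissue was the middle of the digit at the second phalanx (P2), a level from which the digit does not grow back, taken unamputated or 12, 17 or 28 days post-amputation (dpa). Each group was 1 library of an unstated number of pooled animals, so no difference has a replicate check and no p-value was computed. Enzymes (trypsin, then collagenase I) freed the cells, and after removal of red cells only live ones were sorted; how fully this released cells from mineralised bone was not tested.

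A cell was kept with at least 500 genes, at least 1000 unique molecular identifiers (UMIs, 1 per captured RNA molecule) and at most 10% mitochondrial UMIs. Cells with any UMI of the immune gene Ptprc or the endothelial gene Cdh5, or with more than 2 UMIs of the mural gene Rgs5, were left out. Members were then selected on the summed UMIs of Ibsp, Sp7 and Alpl, which had to be at least 4 and higher than each of 6 sums of 3 genes that mark other connective tissue cells. The unamputated library gave 407 members, the 12 dpa library 107, the 17 dpa library 453 and the 28 dpa library 366. Levels of these 3 genes were thus chosen by the rule and are given as a description.

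Osteoblasts are the cells that build bone: they secrete a collagen I matrix, called osteoid, and then mineralise it. They arise from periosteal and marrow stromal progenitors under the transcription factors Runx2 and Sp7 (osterix), pass through an Alpl-positive stage, and make bone sialoprotein, osteopontin and at last osteocalcin as the matrix matures. Some become buried as osteocytes, and in digits the surface of the phalanx, the periosteum, is a source of new osteoblasts after injury.

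All 3 markers of the rule were present in every library, but in different proportions. Ibsp (bone sialoprotein, a mineral-binding matrix protein; chromosome 5, 104299171 to 104311469 in GENCODE M21, GRCm38) was at 4135 CPM (4095 to 4176) in the unamputated library and, at 12, 17 and 28 dpa, 3243 (3157 to 3329.6), 10989 (10908 to 11070.3) and 13504 CPM (13373 to 13637), where CPM is UMIs of the gene per 1000000 UMIs of the members and the brackets are exact Poisson 95% intervals. Such intervals cover counting error only. Alpl (the phosphatase that frees phosphate for mineral) was at 645, 468, 638 and 593 CPM in these libraries, and Sp7 at 87.6, 30.1, 88.4 and 88.5 CPM.

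The 12 dpa members stood apart from the others on these markers. Ibsp was detected in 60.9% of members in the unamputated library, 35.5% at 12 dpa, 73.1% at 17 dpa and 94.0% at 28 dpa. Alpl alone qualified 95 of 407, 61 of 107, 74 of 453 and 16 of 366 members. The median marker sum was 27, 7, 34 and 50 UMIs, so the 12 dpa members lay closest to the threshold. At that library 1 cell supplied 52.3% of the Ibsp UMIs, and without it Ibsp was at 1585 CPM.

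Cells just inside and just outside the threshold were compared once. Members with a sum of exactly 4 numbered 12, 15, 19 and 15, and cells with a sum of 3 that met all else numbered 16, 18, 18 and 12. Runx2 was at 965, 390.4, 1550 and 1659 CPM in the members with a sum of 4 and at 1042, 316, 1577 and 1277 CPM in the cells with a sum of 3. Osteocalcin (Bglap, Bglap2 and Bglap3 together) was at 324, 0, 229 and 4468 CPM just inside and 23.3, 0, 187 and 2588 CPM just outside.

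Genes that the rule did not use bore on the label. Runx2, the master factor of the lineage, was detected in 98.0%, 87.9%, 98.7% and 95.4% of members. It was also detected in 94.0%, 76.9%, 86.8% and 74.8% of the class chosen on Chad, Omd and Scube1, so its detection set members little apart from that class. Bglap was detected in 40% of members in the unamputated library, 1.87% at 12 dpa, 68.7% at 17 dpa and 82.2% at 28 dpa. Among fibroblast-like cells chosen on Pi16, Dpp4 and Pcolce2, which should lack it, the shares were 2.98%, 1.23%, 2.66% and 2.51%, a level that RNA free in the suspension can give. Median depth was 21265, 13895, 13229 and 7126.5 UMIs in members and 22355.5, 13694, 14088.5 and 10061 UMIs in that class. The unamputated, 17 and 28 dpa members were above this level, and the 12 dpa members were not, so at 12 dpa the data go against the label for most members. Osteocalcin did not set the unamputated members apart from the class chosen on Chad, Omd and Scube1, where Bglap was at 534 CPM and in 46.4% of cells against 552 CPM and 40% in members; in that library 45.5% of members had any osteocalcin UMI. At 17 and 28 dpa Bglap in that class was at 144 and 361 CPM, against 1584 and 3416 CPM in members. Those cells are called the 12 dpa members below.

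Some properties of the libraries touch every comparison. Members held 9681122, 1692736, 6449671 and 2984706 UMIs, so the 12 dpa sums have the widest counting error. The members of the 12 dpa library had 293.6 CPM of Xist and no UMI of 4 Y-linked genes, whereas the other members had 0 Xist UMIs and Y-linked sums of 345, 287 and 288 CPM, against the pooled sexes of the labels. Sex and time therefore cannot be told apart at 12 dpa. Scrublet scores marked 92, 6, 25 and 40 members as doublets, and 13, 1, 9 and 20 members held at least 10 keratin UMIs. Both were kept, and removed in alternatives. The barcodes with the highest scores were marked, in a share set by barcode number: 12.8%, 7.05%, 8.41% and 12.2% of barcodes. Scrublet's automatic threshold marked 2.23%, 2.28%, 2.82% and 4.5%. Pairs of libraries shared 0.216% to 0.570% of the smaller library's barcodes, and no 2 members shared one.

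The first comparison asked how large a share of the tissue these cells were. They made up 3.40% of kept cells in the unamputated library, 1.54% at 12 dpa, 5.21% at 17 dpa and 3.13% at 28 dpa. The exact Clopper-Pearson 95% intervals were 3.09 to 3.75%, 1.26 to 1.86%, 4.75 to 5.70% and 2.83 to 3.47%. The 12 dpa share was thus the lowest and the 17 dpa share the highest, and the intervals of the unamputated and 28 dpa libraries overlapped. With an Ibsp UMI, a sum 2 times each other sum, thinning or doublets removed, the 28 dpa share was above the unamputated one.

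The 12 dpa share was lowest on the other denominators too. Of cells left after the immune, endothelial and mural genes were applied, members were 9.23%, 3.07%, 10.9% and 5.64%. Of the 8524 cells placed in any of the 7 classes, they were 20.8%, 6.64%, 21.0% and 13.0%, and the unamputated and 17 dpa intervals overlapped. Digestion and sorting set which cells are captured, and their part in these shares was not tested. The gate itself removed 87, 11, 64 and 66 cells that met the marker condition.

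**Figure D1:**
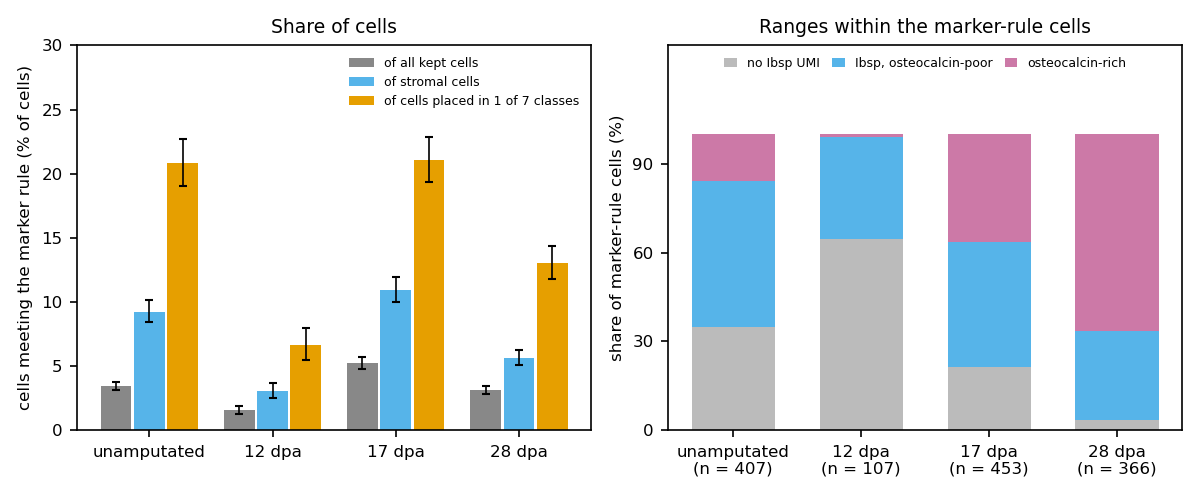
Left, cells meeting the marker rule as a percentage of kept, stromal or placed cells in each library, with exact Clopper-Pearson 95% intervals as bars; right, the division of the members into 3 ranges by Ibsp and osteocalcin UMIs. The 12 dpa share is the lowest on each denominator, and the osteocalcin-rich range takes 15.7%, 0.935%, 36.4% and 66.7% of members.

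Members differed among themselves in Ibsp and osteocalcin. For description they were divided, after the data had been seen, into 3 ranges of a continuum. Osteocalcin-rich cells had at least 10 osteocalcin UMIs per 10000, and the remaining cells were divided into those with an Ibsp UMI and those with none, called cells without Ibsp below. The ranges are not cell types, and 41, 1, 125 and 84 members lay within 2-fold of the osteocalcin threshold.

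Osteocalcin-rich cells were 64 of 407 members in the unamputated library (15.7%, 12.3 to 19.6%), 1 of 107 at 12 dpa (0.935%), 165 of 453 at 17 dpa (36.4%, 32.0 to 41.0%) and 244 of 366 at 28 dpa (66.7%, 61.6 to 71.5%). With each cell thinned to 5000 UMIs, which left out 10, 3, 22 and 94 shallower members, the shares were 15.9%, 0.962%, 40.1% and 66.2%. The share was therefore highest at 28 dpa at equal depth too. Members with no Ibsp UMI and little osteocalcin ran the other way, at 34.9%, 64.5%, 21.2% and 3.55%, and members with Ibsp but little osteocalcin made up 49.4%, 34.6%, 42.4% and 29.8%.

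Within each library a few cells held most of these transcripts. The tenth of members highest in Ibsp held 69.8%, 94.3%, 56.4% and 50% of its UMIs, and the tenth highest in osteocalcin held 85.5%, 100%, 72.8% and 59.2%. Both transcripts were spread over more of the members at 28 dpa than in the other libraries. The single osteocalcin-rich cell at 12 dpa held 96.4% of the Bglap UMIs of that library and also had 56 UMIs of the periosteal genes Chad, Omd and Scube1.

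**Figure D2:**
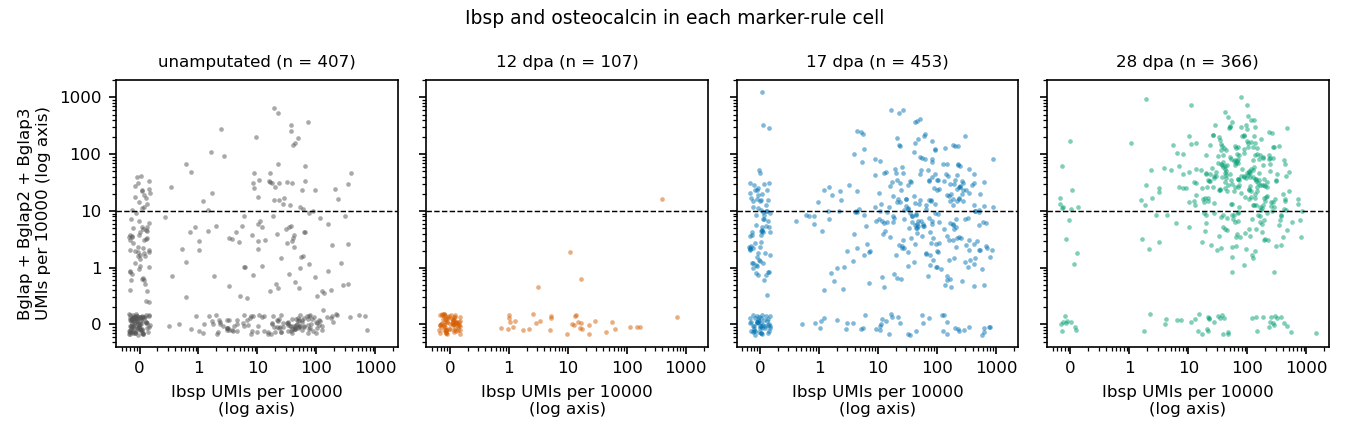
Each point is 1 cell meeting the marker rule, with its Ibsp UMIs per 10000 on the x axis and its osteocalcin UMIs (Bglap, Bglap2 and Bglap3) per 10000 on the y axis, both on log axes with cells at 0 drawn at the lower edge. Points with osteocalcin are nearly absent at 12 dpa and make up most of the members at 28 dpa.

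The second comparison asked how the members' expression differed between each time after amputation and the unamputated library. Among genes at 50 CPM or more in either library, 77 of 3895 (1.98%) were at least 2-fold higher and 160 (4.11%) at least 2-fold lower at 12 dpa. At 17 dpa 39 of 3819 (1.02%) were higher and 75 (1.96%) lower. At 28 dpa 92 of 3868 (2.38%) were higher and 203 (5.25%) lower. Between 28 and 12 dpa, 215 of 3624 (5.93%) were higher and 243 (6.71%) lower at 28 dpa. Folds are on the scale of CPM + 10, which understates the difference of low genes, and the genes of the rule are left out of every count.

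The median log2 ratio over all genes tested was -0.17 at 12 dpa, -0.09 at 17 dpa, -0.23 at 28 dpa and -0.06 for 28 against 12 dpa. Scaling by the median of ratios in place of the UMI total moved the 12 and 28 dpa medians to -0.02 and -0.04. Of the genes called, the share that was higher went from 32.5% to 48.7% at 12 dpa, from 34.2% to 45.3% at 17 dpa and from 31.2% to 51.1% at 28 dpa under that scaling. The 3 comparisons with the unamputated library share that library, so their values stand side by side and are not independent.

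Bglap, Bglap2, Bglap3, Spp1 and Ifitm5 were lowest at 12 dpa and highest at 28 dpa. At 17 dpa Bglap, Bglap2, Bglap3, Spp1 and Dmp1 were at least 2-fold higher and Matn4 lower among 18 of 21 listed genes tested, with a median log2 ratio of 0.46. At 28 dpa 9 of 19 were higher, these 5 with Ifitm5, Dcn, Lum and Car3, and Aspn and Cthrc1 were lower, with a median of 0.87. In osteocalcin-rich cells alone these medians turned to -0.19 at 17 dpa and -0.11 at 28 dpa, but 3 genes of the list choose those cells, so these medians are set in part by the threshold. Of the other 28 dpa genes Spp1, Dmp1, Dcn, Lum and Car3 were under 2-fold there. Over all members Dmp1 was under 2-fold at 17 and 28 dpa after thinning and with the mean of the cells' CPM. Matn4 at 17 dpa was under 2-fold with an Ibsp UMI, with 2 of 3 markers, after thinning and with median-of-ratios scaling. At 28 dpa Dcn was under 2-fold with doublets removed and with that mean, and Lum with that mean. Car3 was so with an Ibsp UMI and after thinning. At 12 dpa 5 of 16 were lower, namely Bglap, Bglap2, Spp1, Dmp1 and Tnc, and Bgn was higher. The median there, 0.40, lay above 0.

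Osteocalcin is the most abundant non-collagen protein of mature bone and the textbook sign of a late osteoblast. Bglap (chromosome 3, 88383501 to 88384464) was at 552 CPM (538 to 567) in the unamputated library and, at 12, 17 and 28 dpa, 16.5 (11.0 to 23.9), 1584 (1553 to 1615) and 3416 CPM (3350.4 to 3483). Bglap2 followed it, at 360.3, 7.09, 1088 and 2580.2 CPM. The 12 dpa library was lowest and the 28 dpa library highest for both, with log2 ratios to the unamputated library of -4.40, 1.5 and 2.61 for Bglap. Bglap3 had no UMI at 12 dpa, where the floor of 3 UMIs in the library makes it at least 8.33-fold lower than the 14.8 CPM of the unamputated library, and it reached 117 and 235 CPM at 17 and 28 dpa. Transcripts of Bglap and Bglap2 matched at 436 of 440 aligned bases and those of Bglap and Bglap3 at 425 of 440, so the split of reads between these 3 genes is uncertain.

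Spp1, osteopontin, is a phosphoprotein by which cells and mineral are held together. It was at 7823 CPM (7767 to 7878) in the unamputated library and, at 12, 17 and 28 dpa, 523 (489.5 to 559), 16483 (16384 to 16583) and 29882 CPM (29686 to 30079). It was low at 12 dpa and highest at 28 dpa, with log2 ratios of -3.88, 1.07 and 1.93. At 12 dpa 1 cell held 31.7% of its UMIs. With cells thinned to 5000 UMIs the 17 dpa value was under 2-fold, and so it was in members limited to cells with Ibsp.

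Dmp1 and Ifitm5 belong to the mineralising stage, Dmp1 as a nucleator of mineral and Ifitm5 as a small membrane protein of osteoblasts. Dmp1 was at 79.7 CPM in the unamputated library and, at 12, 17 and 28 dpa, 2.36, 231 and 236 CPM. Ifitm5 was at 31.4, 8.86, 53.6 and 133 CPM. Both were lowest at 12 dpa, where Dmp1 rested on 4 UMIs, and Ifitm5 was highest at 28 dpa. Mepe, a related protein of osteocytes, stayed low, at 7.02, 0, 19.5 and 14.4 CPM.

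**Figure D3:**
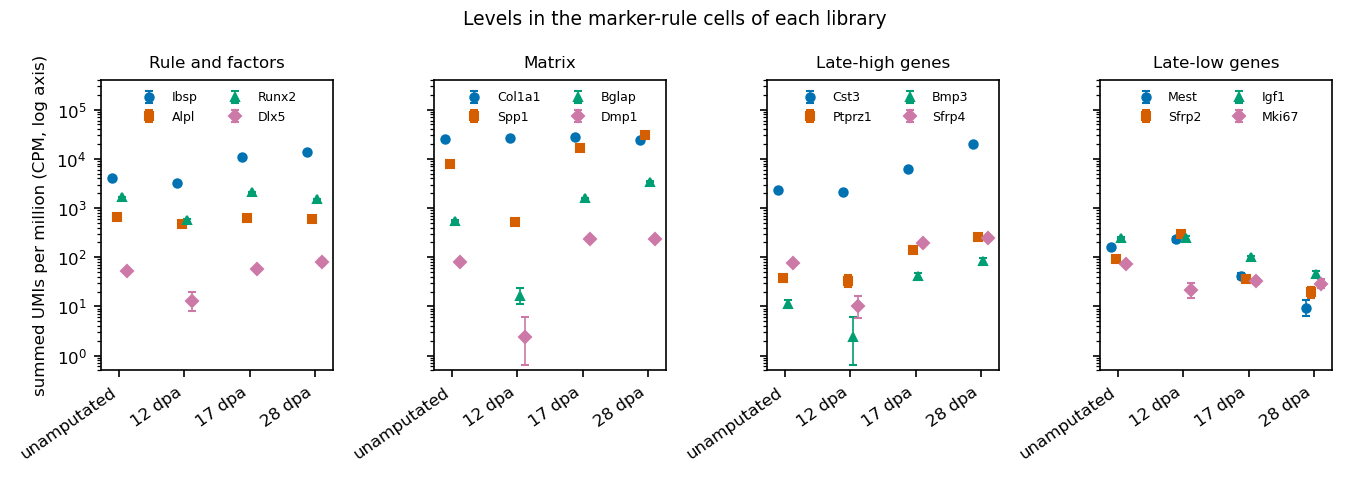
CPM of summed UMIs (log axis) in the cells of each library that met the marker rule, with exact Poisson 95% intervals as bars, which cover counting error only; genes at 0 are not drawn. The matrix genes Bglap and Spp1 are lowest at 12 dpa and highest at 28 dpa, and the collagen I chain Col1a1 stays between 23764 and 27964 CPM.

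The small leucine-rich proteoglycans, which bind collagen fibrils and growth factors, differed in their order. Dcn (decorin) was at 1782, 1789, 3302 and 4106 CPM and Lum (lumican) at 2850.0, 2998, 5265 and 6264 CPM in the unamputated, 12, 17 and 28 dpa libraries. Bgn (biglycan) was instead highest at 12 dpa, at 1585, 3676, 1761 and 1615 CPM. Aspn (asporin) was at 2096, 2803, 1705 and 966 CPM, highest at 12 dpa and lowest at 28 dpa. Lum and Dcn were thus highest, and Aspn lowest, in the 28 dpa members. In members with Ibsp and little osteocalcin alone, Aspn was not lower at 28 dpa than in the unamputated library.

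Other matrix proteins showed their own orders. Sparc (osteonectin, a collagen- and calcium-binding protein) was at 11080.3, 14544, 15658 and 20328 CPM, and no library was 2-fold from another. Cthrc1, made by cells that lay down collagen after injury, was at 521, 776, 355 and 196 CPM. Tnc (tenascin C) was at 1562, 425, 1302 and 858 CPM, lowest at 12 dpa. Thbs2 and Postn were highest at 12 dpa, at 959 and 4130.0 CPM against 492 and 2360.2 CPM in the unamputated library. Car3 had no UMI at 12 dpa and 32.1, 28.4 and 86.1 CPM elsewhere. Levels of different genes are not compared here, since 3′ counts depend on the capture of each transcript.

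Promoter sequence is shown for Bglap and Spp1, and for Mmp13, a gene outside the bone matrix list, all 3 of which hold a match. It is shown because the factor of the lineage, Runx2, binds the core letters ACCACA and was itself measured. The letters were searched on both strands in the 250 bases before each start in RefSeq (GRCm38.p6); AACCACA contains ACCACA. The windows below hold the last 160 of those bases, 5′ to 3′ on the gene's strand, with the match in capitals.
Bglap (chr3:88384467-88384626, minus strand): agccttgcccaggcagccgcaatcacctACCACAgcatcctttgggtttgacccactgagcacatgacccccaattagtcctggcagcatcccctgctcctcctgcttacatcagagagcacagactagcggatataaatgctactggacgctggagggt
Spp1 (chr5:104434951-104435110, plus strand): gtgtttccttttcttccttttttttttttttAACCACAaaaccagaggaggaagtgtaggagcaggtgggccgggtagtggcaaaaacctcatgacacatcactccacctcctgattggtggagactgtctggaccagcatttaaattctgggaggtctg
Mmp13 (chr9:7272354-7272513, plus strand): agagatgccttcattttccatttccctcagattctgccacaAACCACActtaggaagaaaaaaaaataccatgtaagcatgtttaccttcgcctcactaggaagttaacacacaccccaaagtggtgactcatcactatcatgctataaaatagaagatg
The matches lie at -132 to -127, -129 to -123 and -119 to -113 from the start. Of 32536 windows of this length, 14.0% hold ACCACA and 4.41% hold AACCACA. Of the 21 bone matrix genes 15 were in the table, and 4 of these (26.7%) had a match at a start, against 15.9% of 27025 genes. A match is a description of letters, not a binding site, and Ibsp and Alpl, 2 genes of the rule, had none in their windows.

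Transcription factors of the lineage differed at 12 dpa and hardly at the later times. Runx2 and Dlx5 were among the factors at least 2-fold lower at 12 dpa, of 9 tested from a list of 15, and none of the 9 was 2-fold from the unamputated library at 17 or 28 dpa. Runx2 (chromosome 17, 44495987 to 44814797) was at 1674 CPM (1648 to 1699.8) in the unamputated library and, at 12, 17 and 28 dpa, 561 (526 to 598), 2084 (2049 to 2119.8) and 1495 CPM (1451 to 1539). Dlx5, a homeobox factor of bone, was at 51.9, 13.0, 58.5 and 79.1 CPM. The 12 dpa library was lowest for both.

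Runx2 was lowest at 12 dpa in both ranges that could be compared. In members with no Ibsp UMI Runx2 was at 1289, 343, 1170.4 and 516 CPM in the unamputated, 12, 17 and 28 dpa libraries, of which the last rests on 13 cells. In members with Ibsp and little osteocalcin it was at 1701, 873, 2219.9 and 1317 CPM, under 2-fold between the unamputated and 12 dpa libraries. Under the setting with at least 1 Ibsp UMI, the difference of Runx2 between 28 and 12 dpa was under 2-fold. Factors shared with many connective tissue cells were closer between libraries: Twist1 was at 166, 147, 199 and 175 CPM, Creb3l1 at 179.5, 202, 195 and 177 CPM and Atf4 at 90.9, 111, 109.9 and 133 CPM.

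The 2 chains of collagen I, the bulk of bone protein, stayed close between libraries. Col1a1 was at 25128 CPM in the unamputated library and, at 12, 17 and 28 dpa, 26686, 27964 and 23764 CPM. Col1a2 was at 18945, 22052, 22296 and 20225 CPM. Neither was 2-fold from the unamputated library at any time. Of the 24 collagen-processing genes tested, among them the chaperone Serpinh1 at 923, 1086, 1003 and 832 CPM, none was 2-fold different at 12 or 17 dpa, and only Loxl2, a cross-linking enzyme, was lower at 28 dpa (71.0 against 188 CPM). Its log2 ratio of -1.29 was under 2-fold after thinning and was -0.10 in osteocalcin-rich cells. Over all genes tested 1.98% were higher and 4.11% lower at 12 dpa, 1.02% and 1.96% at 17 dpa, and 2.38% and 5.25% at 28 dpa. The collagen-processing counts lie near these shares.

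Several minor collagens were lower in the 28 dpa members. Among 16 of 17 listed chains tested there, Col6a2, Col6a3, Col8a1, Col11a1, Col12a1 and Col24a1 were at least 2-fold lower and Col11a2, Col13a1 and Col22a1 higher, with a median of -0.90. Col3a1, the fibrillar chain of soft and healing tissue, was at 11289 CPM in the unamputated library and, at 12, 17 and 28 dpa, 16597, 12584 and 6172 CPM. It was highest at 12 dpa and lowest at 28 dpa. Col6a3 was at 1604, 1655, 1949 and 719 CPM, Col8a1 at 124, 177, 59.8 and 31.2 CPM and Col24a1 at 113, 149, 63.6 and 25.5 CPM. The transmembrane chain Col13a1 was lowest at 12 dpa and highest at 28 dpa, at 59.5, 10.0, 115 and 142 CPM. With the doublets removed, Col6a2, Col6a3 and Col11a2 were under 2-fold. In osteocalcin-rich cells alone 7 of these 9 genes were under 2-fold, all but Col12a1 and Col24a1, with Col13a1 at -0.34 and a list median of -0.47. At 12 and 17 dpa the same list had 1 gene higher (Col14a1) and 1 lower (Col13a1) of 16, and none of 14. Col14a1 at 12 dpa was under 2-fold with the stricter cell filter, a marker sum of at least 8, an Ibsp UMI or 2 of 3 markers.

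Of 16 listed genes of mineral deposition, between 9 and 11 were tested against the unamputated library at each time. Enpp1, which makes pyrophosphate, was at 109.6, 202, 218 and 227.8 CPM, and Ank, which exports its precursor, at 129, 96.3, 250.1 and 292 CPM. Smpd3, a sphingomyelinase needed for mineral, was at 57.2, 18.3, 80.5 and 109 CPM. At 12 dpa 51.6% of its UMIs came from 1 cell and the other 48.4% from the cell with the most Ibsp UMIs. Ank and Fam20c, the kinase of secreted phosphoproteins, were at least 2-fold higher and the phosphate carrier Slc20a2 lower among 11 genes tested at 28 dpa. Over all genes tested at 28 dpa, 2.38% were higher and 5.25% lower. Fam20c, at a log2 ratio of 1.00, was under 2-fold with the looser and the stricter cell filter, and both Fam20c and Ank with an Ibsp UMI, with 2 of 3 markers, after thinning and in osteocalcin-rich cells alone. Only Smpd3 of 9 was lower at 12 dpa, and 0 of 10 were 2-fold different at 17 dpa. Over all genes tested 4.11% were lower at 12 dpa, and 1.02% were higher and 1.96% lower at 17 dpa. Smpd3 at 12 dpa was under 2-fold with a marker sum of at least 8, an Ibsp UMI or 2 of 3 markers. It was so too with a sum 2 times each other sum and after thinning. Phospho1, another phosphatase of mineral vesicles, was at 0.723, 0, 0.310 and 0.335 CPM and so near 0 throughout.

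Osteocyte genes gave a partial picture. Of 7 tested at 28 dpa, Dmp1, Ptprz1, Capg and again Fam20c were at least 2-fold higher; of 5 tested at 17 dpa, Dmp1 and Ptprz1 were. Ptprz1, a receptor phosphatase that binds pleiotrophin, was at 37.6 CPM (33.8 to 41.7) in the unamputated library and, at 12, 17 and 28 dpa, 33.1 (25 to 43.0), 141 (132 to 150.1) and 257 CPM (239 to 276). Sost, the osteocyte inhibitor of Wnt signalling, was at 0.310, 0, 5.12 and 0.335 CPM, and Phex at 47.0, 6.5, 63.4 and 67.0 CPM. Ptprz1 was highest at 28 dpa, whereas the defining late osteocyte gene Sost was near 0 in all 4 libraries.

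Progenitor and periosteal genes were lowest at 28 dpa in part. Sfrp2, a secreted Wnt modulator of stromal cells, was at 93.5 CPM (87.5 to 99.8) in the unamputated library and, at 12, 17 and 28 dpa, 292 (267 to 319), 36.7 (32.2 to 41.7) and 19.4 CPM (14.8 to 25.1). Acta2, the contractile actin that also marks bone progenitors, was at 205, 254, 64.7 and 28.5 CPM, and Ogn (osteoglycin) at 613, 625, 365 and 250.3 CPM. At 28 dpa Sfrp2, Aspn, Acta2 and Ogn were at least 2-fold lower among 12 tested, at 17 dpa Sfrp2 and Acta2, and at 12 dpa Sfrp2 was higher and Fap lower. In osteocalcin-rich cells alone the 28 dpa log2 ratios were -0.32 for Sfrp2, -0.91 for Ogn and 0.76 for Acta2. Aspn at 28 dpa was under 2-fold with an Ibsp UMI, with 2 of 3 markers, after thinning and with median-of-ratios scaling. Mmp13, the collagenase of osteoblasts, was at 2363 CPM in the unamputated library and, at 12, 17 and 28 dpa, 1352, 3265 and 2711 CPM, and Ctsk, a matrix protease, at 479, 848, 524 and 625 CPM; neither was 2-fold from the unamputated library.

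Signals and receptors were read next, beginning with bone morphogenetic proteins (BMPs), which induce bone. Bmp2, Bmp3 and Bmp8a were at least 2-fold higher and Bmp5 lower among 15 of 26 pathway genes tested at 28 dpa, none of 12 at 17 dpa, and at 12 dpa only Smad6 was lower. Bmp3, an atypical member made by osteoblasts, was at 11.3, 2.36, 41.6 and 84.1 CPM, and Bmp8a at 9.19, 3.54, 24.7 and 51.6 CPM. Bmp2 was at 16.6, 15.4, 36.9 and 54.6 CPM. Against the unamputated library Bmp2 was under 2-fold at 28 dpa after thinning and in osteocalcin-rich cells, where its log2 ratio was 0.46, and Bmp5 in members with an Ibsp UMI. Id1, a direct target of the pathway, was at 74.4, 40.8, 122 and 150.4 CPM, lowest at 12 dpa. Between 12 and 28 dpa 8 of 15 genes were higher at 28 dpa, with a median of 1.05. A minimum of 100 CPM left 7 genes tested, 2 higher and 0 lower, and their median was -0.13. Of the 8, Bmp2, Smad6, Smad7 and Id2 were each under 2-fold in at least 3 of the alternative settings.

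Secreted Wnt modulators were ordered in opposite ways. Sfrp4, made by mature osteoblasts, was at 74.9 CPM (69.5 to 80.5) in the unamputated library and, at 12, 17 and 28 dpa, 10.0 (5.85 to 16.1), 193 (182 to 204) and 243 CPM (226 to 261). Sfrp1 was at 101, 93.3, 31.3 and 14.4 CPM, and Rspo3, which potentiates Wnt signals, at 72.9, 37.2, 33.8 and 11.7 CPM. Sfrp4 was thus lowest at 12 dpa and highest at 28 dpa, and Sfrp1, Sfrp2 and Rspo3 were lowest at 28 dpa. Of the ligands, Wnt16, which is known to act on cortical bone, was at 46.6, 62.0, 77.7 and 121 CPM and Wnt5a at 158, 82.1, 85.9 and 53.3 CPM. Of 13 of 33 pathway genes tested at 28 dpa, Wnt16 and Sfrp4 were at least 2-fold higher and Wnt5a, Sfrp1, Sfrp2 and Rspo3 lower. At 17 dpa Sfrp4 was higher and Sfrp1 and Sfrp2 lower, and at 12 dpa Sfrp2 was higher and Lrp4, Sfrp4 and Wif1 lower.

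Hormone and growth factor genes that passed 2-fold against the unamputated library were all lower. Pth1r, the receptor for parathyroid hormone, was at 239, 155, 349 and 428 CPM, and Vdr, the vitamin D receptor, at 49.4, 13.6, 74.3 and 89.5 CPM; both were lowest at 12 dpa and highest at 28 dpa. Fgfr2 was at 566, 229.8, 603 and 388 CPM, 2-fold lower at 12 dpa, and Fgfr1 at 329, 334, 485 and 406 CPM. Igf1 was at 245 CPM (235 to 255) in the unamputated library and, at 12, 17 and 28 dpa, 249.9 (227 to 275), 100.2 (92.6 to 108) and 44.9 CPM (37.6 to 53.2), and Igf2 at 73.9, 8.86, 43.1 and 11.7 CPM. Of 19 genes tested at 28 dpa, Igf1, Igf2 and Tgfb3 were at least 2-fold lower and none was higher. In members with Ibsp and little osteocalcin alone, Igf1 was not 2-fold lower at 28 dpa. At 17 dpa only Igf1 of 20 was lower, and at 12 dpa Igf2 and Fgfr2 of 18. Over all genes tested 5.25% were lower at 28 dpa, 1.96% at 17 dpa and 4.11% at 12 dpa.

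Signals to osteoclasts, the cells that resorb bone, were low to moderate. Tnfsf11 (RANKL, which drives osteoclast formation) was at 71.1, 36.0, 93.2 and 41.2 CPM, and Tnfrsf11b (osteoprotegerin, its decoy) at 3.31, 1.77, 15.8 and 21.1 CPM. Csf1, a growth factor for osteoclast precursors, was at 123, 30.1, 95 and 96.8 CPM, at least 2-fold lower at 12 dpa. At 28 dpa Vcam1 was higher (177 against 70.4 CPM) and Wnt5a lower among 6 genes tested.

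Mki67 and Top2a, genes of dividing cells, were highest in the unamputated members. Mki67 was at 72.4 CPM in the unamputated library and, at 12, 17 and 28 dpa, 21.3, 33.5 and 29.1 CPM, and Top2a at 91.0, 18.3, 43.1 and 28.5 CPM. Both were lower in each library after amputation. A UMI of either was found in 28.5% of unamputated members and 9.35%, 7.28% and 7.1% at 12, 17 and 28 dpa, and after thinning in 15.1%, 4.81%, 4.87% and 4.41%. In the Pi16, Dpp4 and Pcolce2 class, thinned, the shares were 6.69%, 5.63%, 2.89% and 4.40%. These shares include cells that Scrublet marked, and whether members differ from that class was not tested.

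These cells sat mainly in 1 range. In the unamputated library 90 of 201 members with Ibsp and little osteocalcin (44.8%) had a UMI of Mki67 or Top2a, and Scrublet marked 68 of these 201 (33.8%) as doublets. With doublets removed from all libraries Mki67 was at 42.2, 22.5, 19.5 and 6.88 CPM. The unamputated library was still highest. At 28 dpa Mki67, Top2a, Birc5 and Cenpf were at least 2-fold lower of 6 genes tested, likewise at 12 dpa, and at 17 dpa Birc5 and Cenpf. Mki67 and Cenpf at 28 dpa were under 2-fold with median-of-ratios scaling, and Mki67, Birc5 and Cenpf at 12 dpa with doublets removed.

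Glycolysis genes were lower at 17 and 28 dpa in part. Gapdh was at 410.1, 388, 172 and 189 CPM and Eno1 at 112, 59.1, 25.3 and 40.2 CPM; at 17 dpa Gapdh, Pgk1 and Eno1 were at least 2-fold lower of 7 tested, at 28 dpa Gapdh and Eno1, and at 12 dpa none. With doublets removed Pgk1 at 17 dpa and both genes at 28 dpa were under 2-fold, and in osteocalcin-rich cells alone Gapdh and Eno1 gave log2 ratios of -0.22 and -0.64 at 28 dpa. Genes that respond to tissue dissociation stood higher at the same 2 times. Fos, an immediate early gene, was at 525 CPM in the unamputated library and, at 12, 17 and 28 dpa, 373, 1110.0 and 1261 CPM. At 28 dpa Fos, Junb, Ier3, Atf3, Hspa1a and Zfp36 were at least 2-fold higher of 16, at 17 dpa Fos, Atf3, Zfp36 and Socs3, and at 12 dpa Fosb and Egr1 were lower of 15. These genes move with handling of the tissue, and with cells thinned, as in osteocalcin-rich cells alone, all 6 genes at 28 dpa and all 4 at 17 dpa were under 2-fold. At 12 dpa Fosb was under 2-fold with a marker sum of at least 8, an Ibsp UMI, 2 of 3 markers or a sum 2 times each other sum. Egr1 was so with an Ibsp UMI and with median-of-ratios scaling. The part of the dissociation genes in the other differences was not tested.

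Limb patterning genes were near their unamputated levels with 1 exception. Prrx1, a homeobox factor of limb mesenchyme, was at 726, 543, 621 and 453 CPM, and the distal factor Hoxd13 at 40.4, 34.3, 43.7 and 37.5 CPM. Mest, an imprinted gene of growing tissue, was at 164 CPM (156 to 172) in the unamputated library and, at 12, 17 and 28 dpa, 230.4 (208 to 254), 41.7 (36.9 to 47.0) and 9.38 CPM (6.23 to 13.6). It was at least 2-fold lower at 17 and 28 dpa, the only one of 4 tested. H19, an imprinted RNA, was at 109, 144, 50.7 and 5.36 CPM, in a like order.

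List medians stood beside the medians of all genes tested, which were -0.17, -0.09 and -0.23 at 12, 17 and 28 dpa. Transcription factors had a median log2 ratio of -0.17, 0.12 and -0.16. Collagen processing had a median log2 ratio of 0.07, -0.04 and -0.23. Progenitor and periosteal genes had a median log2 ratio of 0.29, 0.14 and -0.37. The Wnt pathway had a median log2 ratio of -0.48, -0.11 and -0.48. Hormone and growth factor genes had a median log2 ratio of -0.27, 0.06 and -0.34. Proliferation had a median log2 ratio of -1.36, -0.92 and -1.04. Dissociation stress had a median log2 ratio of -0.33, 0.67 and 0.90. Proliferation was thus below the median of all genes at each time, and dissociation stress above it at 17 and 28 dpa.

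**Figure D4:**
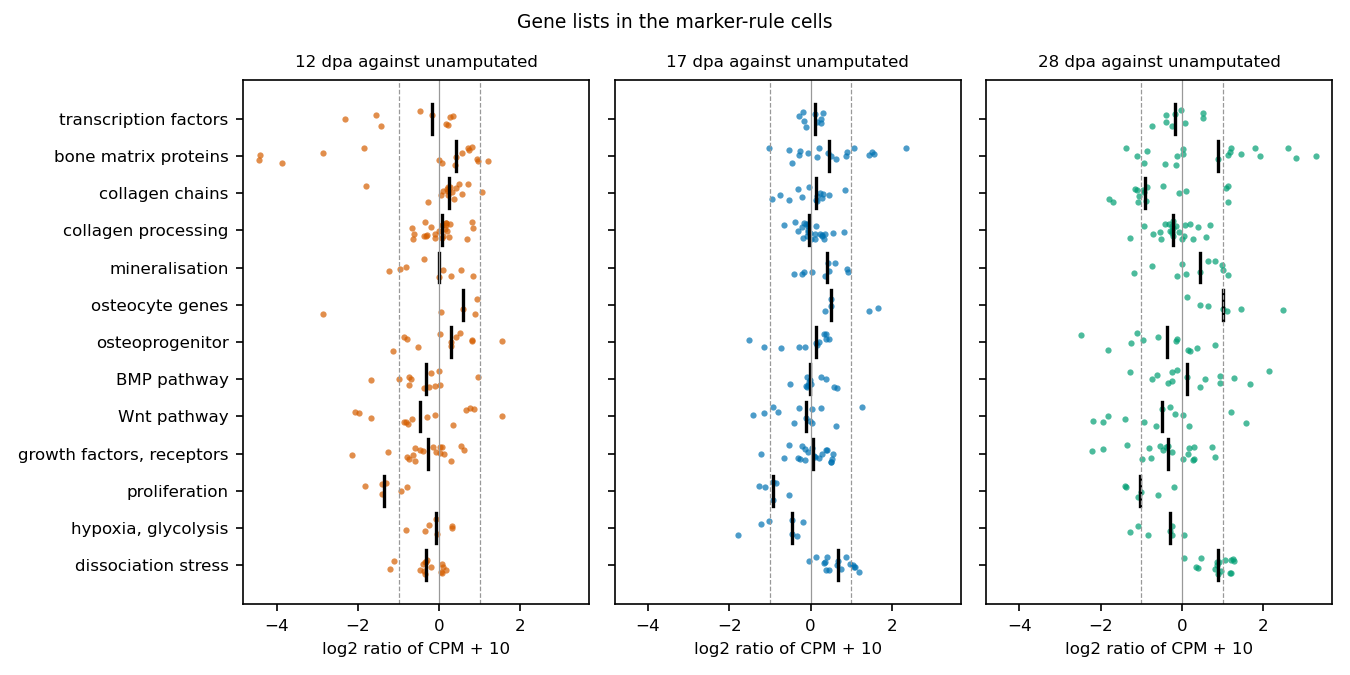
Log2 ratio of CPM + 10 to the unamputated library for each tested gene of 13 lists (points) with the list median (black bar), at 12, 17 and 28 dpa; dashed lines mark 2-fold. Bone matrix genes reach furthest downwards at 12 dpa and furthest upwards at 28 dpa, and the collagen-processing list stays within the dashed lines at 12 and 17 dpa.

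The genes furthest from the unamputated library at 12 dpa were chosen by a rule of size. On the high side were Cxcl5 (223 against 18.4 CPM), a neutrophil chemokine, Mfap5 (656 against 114 CPM), a microfibril protein, and C1qtnf3, Igfbp3, Cilp, Gm26771, Mfap4, Cdk8 and Cmss1, with log2 ratios down to 1.73. One cell held 36.1% of the Cxcl5 UMIs. On the low side were Fat3, an atypical cadherin, at 16.5 against 746 CPM, and Lifr, the receptor for leukaemia inhibitory factor, at 29.5 against 478 CPM. Hp had no UMI and was at least 37.0-fold lower. Hpgd, Dapk2, Tnfrsf19, 8030451A03Rik, Bglap, Bglap2 and Spp1 completed that end.

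At 17 dpa the high end held the osteocalcin genes with Syn3, Rgs3, Ptprz1, Nupr1, Timp3, Susd5 and Cst3. Cst3, cystatin C, an inhibitor of cysteine proteases such as cathepsin K, was at 2277 CPM (2247 to 2308) in the unamputated library and, at 12, 17 and 28 dpa, 2132 (2063 to 2203), 6233 (6172 to 6294) and 19683 CPM (19524 to 19843). Nupr1, a stress-induced nuclear protein, was at 232, 588, 742 and 1059 CPM, and Timp3, an inhibitor of metalloproteinases, at 229, 187, 677 and 531 CPM. Cst3 and Nupr1 were highest at 28 dpa, and Timp3 and Syn3 at 17 dpa. In osteocalcin-rich cells alone Syn3, Rgs3, Ptprz1, Timp3 and Cst3 were under 2-fold at 17 dpa. The low end was Kif26b, Mfap4, Mmp9, Adgrl3, Brinp3, Col4a1, Kcnc2, Fbn2, Hist1h2ae and Eno1. In osteocalcin-rich cells alone Mmp9, Adgrl3, Col4a1, Kcnc2 and Hist1h2ae turned to 1.17, 0.33, 1.03, 0.27 and 0.49 on the log2 scale, and Kif26b, Brinp3 and Fbn2 were under 2-fold.

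At 28 dpa Cst3 had a log2 ratio of 3.11, second only to Bglap3 at 3.31, and Bglap2, Bglap, Ptprz1, Bmp3, Nupr1, Ptgis, Gadd45b and Susd5 followed. The low end was led by Kif26b, a kinesin, at 256 CPM in the unamputated library and, at 12, 17 and 28 dpa, 263, 30.4 and 11.1 CPM. Mest, Mmp9, H19, Col4a1, Fbn2, Kcnc2, Mfap4, Nav3 and Brinp3 followed; Kcnc2 rested on 2 UMIs. Among osteocalcin-rich cells alone Ptgis, Mmp9, Mfap4, Col4a1 and Kcnc2 were under 2-fold, with log2 ratios of 0.86, -0.31, -0.75, 0.49 and 0.03, the last 2 with the opposite sign, and Mfap4 was also under 2-fold in members with an Ibsp UMI. Fbn2, a fibrillin of growing tissue, was at 154, 356, 32.4 and 13.1 CPM, and the basement membrane chain Col4a1 at 325, 147, 69.5 and 36.2 CPM. Fbn2 and Mfap4 were highest at 12 dpa, and Kif26b and Mest were within 2-fold between the unamputated and 12 dpa libraries. Mmp9 is an osteoclast protease, and with doublets removed its level was 42.8 CPM in the unamputated library, in place of 129 CPM, and 2.43 CPM at 28 dpa.

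Between 12 and 28 dpa, 2 libraries that share no control with each other, the high end at 28 dpa was Bglap2, Bglap, Spp1, Bglap3, Dmp1, Fat3, Lifr, Cadm1, Sfrp4 and Dapk2. Their log2 ratios ran from 7.24 for Bglap2 to 3.63 for Dapk2. Dapk2, a death-associated kinase, rested on 3 UMIs at 12 dpa. The low end was Mfap4 (10.1 against 396 CPM), Fbn2, Cxcl5, Kif26b, C1qtnf3, Mest, Fbln2, Sfrp2, H19 and Igfbp3.

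Since the mix of ranges differed between libraries, levels were read again within each range, a division made after seeing the data. Of the genes called over all members, 28 of 114 at 17 dpa and 110 of 295 at 28 dpa were also called in osteocalcin-rich cells alone. In those cells 30 genes were at least 2-fold higher and 72 lower of 3603 tested at 17 dpa, and 64 higher and 183 lower of 3666 tested at 28 dpa. Osteocalcin itself is set by the threshold and is not read within it. In osteocalcin-rich cells Cst3 was at 6568 CPM in the unamputated library and, at 17 and 28 dpa, 8531 and 24660.3 CPM, and Ptprz1 at 155, 297 and 336 CPM. Bmp3 was at 16.8, 68.6 and 108 CPM. Of these 3 libraries the unamputated one was lowest for each gene, as it was over all members. Nupr1 was at 254, 869 and 891 CPM, similar at the later times.

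Some genes were lower at 28 dpa within single ranges too. In osteocalcin-rich cells Mest was at 77.0, 16.7 and 8.64 CPM, H19 at 53.1, 17.1 and 2.70 CPM and Col3a1 at 9234, 9827 and 5543 CPM. In cells with Ibsp and little osteocalcin Kif26b was at 345, 386, 31.4 and 21.7 CPM, and Mest at 138, 144, 39.9 and 5.92 CPM. Kif26b was thus low at 17 and 28 dpa in that range, while in osteocalcin-rich cells its 17 dpa log2 ratio was -0.17.

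Other differences were smaller or turned within the osteocalcin-rich cells. Spp1 was at 16795, 27465 and 28988 CPM there, a log2 ratio of 0.79 at 28 dpa against 1.93 over all members. Dmp1 was at 281, 521 and 259.6 CPM, and its 28 dpa log2 ratio turned to -0.11. Mki67 was at 1.77, 7.91 and 21.6 CPM, a log2 ratio of 1.42 at 28 dpa in place of -1.07. These levels lie under the minimum of 50 CPM used for the counts. Sfrp4, Wnt16, Acta2 and Col13a1 likewise gave 0.23, -0.09, 0.76 and -0.34 at 28 dpa. The unamputated library has 64 such cells.

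The ranges differed in more than the 2 genes that divide them. Aspn was at 4573, 3656, 4316 and 3213 CPM in cells without Ibsp and 996, 1668, 1306 and 1159 CPM in cells with it and little osteocalcin, in the unamputated, 12, 17 and 28 dpa libraries. Igf1 was at 642, 352, 373 and 279 CPM and 78.5, 105, 35.6 and 73.0 CPM. Spp1 was at 124, 69.5, 1631 and 3002 CPM and 9694, 1158, 13744 and 34650.4 CPM. In each library cells without Ibsp thus held more Aspn and Igf1 and less Spp1 than cells with it. With Ibsp and little osteocalcin, neither Aspn nor Igf1 was 2-fold lower at 28 dpa than unamputated, unlike over all members. Without Ibsp, Igf1 was, at 279 against 642 CPM. The range without Ibsp made up 34.9% of unamputated members and 3.55% of 28 dpa members. The median cell had 2, 0, 2 and 1 UMIs of C4b, Gdf10 and Cyp2f2 in the range without Ibsp, and 3, 1, 2 and 1 UMIs of Chad, Omd and Scube1 in the range with Ibsp and little osteocalcin. At 12 dpa 2 other sums were higher than these, that of Scx, Tnmd and Thbs4 and that of Hapln1, Prg4 and Inhba. Each had a median of 1 UMI without Ibsp and 2 UMIs with it. The rule used all these sums, so they are a description.

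**Figure D5:**
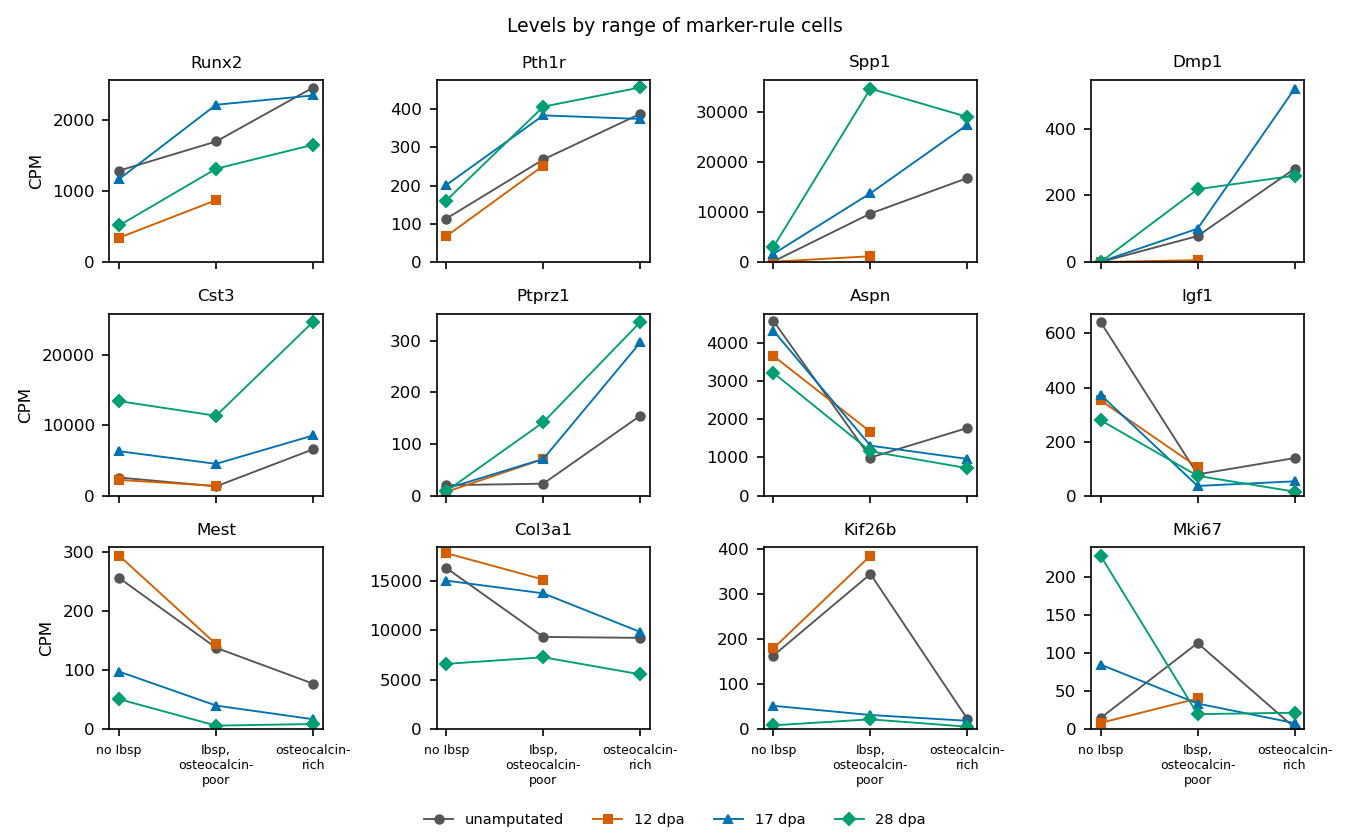
CPM (linear axes from 0) of 12 genes in the 3 ranges of cells meeting the marker rule, 1 line per library. The 28 dpa range without Ibsp has 13 cells, and the 12 dpa osteocalcin-rich range, with 1 cell, is not drawn; Pth1r is higher with Ibsp and little osteocalcin than without Ibsp in each library, and Aspn and Igf1 are lower.

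Rank correlations across single members thinned to 5000 UMIs use Ibsp, a gene of the rule, and osteocalcin, which divides the ranges, so they restate that division cell by cell. They are a description over 397, 104, 431 and 272 cells that share a library. Spearman's rho of Spp1 with Ibsp was 0.62, 0.42, 0.60 and 0.52, and that of Mmp13 was 0.40, 0.49, 0.35 and 0.17. Aspn gave -0.63, -0.47, -0.65 and -0.51. Col1a1 gave -0.03, -0.03, 0.55 and 0.45, near 0 in the unamputated and 12 dpa libraries and positive at 17 and 28 dpa. With osteocalcin, Cst3 gave 0.53, 0.38 and 0.39 in the unamputated, 17 and 28 dpa libraries, and Ptprz1 0.32, 0.44 and 0.42.

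Osteoblast-like cells were last set beside the other connective tissue classes, as a description, since cells were chosen on this contrast. The only class compared on its own was the 342 cells chosen on the periosteal genes Chad, Omd and Scube1. It differed by at least 2-fold in all 4 libraries at 15 of 4811 genes higher in members (0.312%) and 9 lower (0.187%). That class has 13 cells at 12 dpa. Against all other placed cells pooled, 42 of 4553 genes were higher (0.922%) and 30 lower (0.659%).

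The genes higher in members in all 4 libraries included ones of bone formation. Beside the Chad, Omd and Scube1 class, Spp1 was at 7823 against 223 CPM in the unamputated library, 523 against 39.7 CPM at 12 dpa, 16483 against 396 CPM at 17 dpa and 29882 against 2169 CPM at 28 dpa. Smpd3, Col11a2, Serpine2, Ramp1, Unc5b, Mmp16, Slc8a3, 8030451A03Rik, Ptprz1, Pcsk6, Ppm1e and Sgms2 were also among the 15. At 12 dpa 1 cell held 59.6% of the Col11a2 and 48.4% of the Smpd3 UMIs, and without it they were at 23.0 and 9.68 CPM against 11.3 and 0 CPM, under 2-fold on the scale of CPM + 10. Against all other placed cells, Mmp13 led at 2363 against 239 CPM in the unamputated library, 1352 against 114 CPM at 12 dpa, 3265 against 187 CPM at 17 dpa and 2711 against 69.2 CPM at 28 dpa. Runx2 was at 1674 against 308 CPM in the unamputated library, 561 against 187 CPM at 12 dpa, 2084 against 191 CPM at 17 dpa and 1495 against 119 CPM at 28 dpa. Even at 12 dpa Mmp13 and Runx2 were thus higher in members than in the other placed cells, although Runx2 was lower there than in members of the other libraries. Neither was among the 15 genes above: in the Chad, Omd and Scube1 class Mmp13 was at 1719, 261, 1313 and 749 CPM and Runx2 at 1283, 431, 888 and 692 CPM.

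Markers of other cell types were read over whole lists. The 15 cartilage genes summed to 621, 2035, 693 and 1404 CPM, with Col10a1, which defines hypertrophic cartilage, at 0 at 12 and 28 dpa and at 9.40 and 0.310 CPM in the others. At 12 dpa Col2a1 was at 649.8 CPM, of which 67.9% came from 1 cell and 31.8% from the cell with the highest Ibsp. That latter cell had 2870 Ibsp, 350 Col2a1 and 142 Acan UMIs and none of Spp1, Bglap or Dmp1. The 8 osteoclast genes summed to 204, 127, 109 and 97.8 CPM, with Oscar and Calcr at 0 in every library.

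Markers of other cell types were summed over members as well. The 10 keratinocyte genes summed to 711, 165, 433 and 1325 CPM, and to 101, 149, 113 and 317 CPM without the 43 members with keratin UMIs. The 10 macrophage genes summed to 46.2, 63.8, 121 and 285 CPM, led by Lyz2 at 22.5, 33.7, 69.5 and 148 CPM, and the 8 endothelial genes to at most 35.4 CPM. The 12 genes of nail mesenchyme and dermal papilla, of which 8 or 9 had UMIs in each library, summed to 1354, 863, 1093 and 878 CPM, against 1133, 549, 859 and 807 CPM in the other placed cells. Of these genes Rspo4 and Prom1 were at 0 in members of all 4 libraries. The 10 tendon genes summed to 1471, 2254, 1626 and 2332 CPM, largely Fmod and Comp, of which Comp was at 297, 755, 401 and 1130.1 CPM. Their part in the differences above was not tested.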

How the data were processed

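Single-cell 3′ libraries of 4 digit samples were used, 1 per group. The deposited matrices hold raw UMI counts per gene and cell barcode that the authors made with Cell Ranger 7.1.0 on mm10, per the submitters' processing notes; the annotation they used is not given in the sources used here. Of 32285 genes in the files, 32158 gene IDs were found in GENCODE M21.

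Cells were filtered and selected as the report states. Counts were summed over members in each library and divided by the library's members' total (CPM). Ratios used CPM + 10, genes at 50 CPM or more in either library, and a 2-fold limit; no test was possible with 1 library per group. Doublets were scored with Scrublet (scanpy 1.11.5) at 0.8% per 1000 barcodes and kept. Intervals are exact (scipy 1.17.1). Arithmetic used numpy 2.4.6 and was checked on simulated data.

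The text names genes of the lists, and the 10 highest and 10 lowest per comparison among genes with a UMI in at least 10% of members of the higher library. Rule genes, mitochondrial, haemoglobin, immunoglobulin and sex-linked genes were not eligible, nor were genes whose level was below 0.1 of that in immune, endothelial, mural or keratinocyte cells. Against other classes, the 20 genes with the highest least ratio were taken. The members and lists were chosen with earlier results of these data known. Alternatives were other cell filters, marker rules, doublet removal, thinning, scaling, gene minima and folds. Leaving out keratin cells or the leading 12 dpa cell, and the osteocalcin-rich cells alone, were chosen after seeing the data. Some genes that met the naming rule are not reported here.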

Additional observations from a re-analysis of the deposited data

Results flagged for a closer look

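In the 12 dpa members Xist was at 293.6 CPM and Y-linked genes had no UMI, whereas the other 3 libraries had no Xist UMI, although the labels give pooled sexes for each.

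Some genes lay on opposite sides of the unamputated library at 12 dpa and later. These differences were not tested, each rests on 1 library per time, and the log2 ratios share the unamputated control. For Bglap the log2 ratio at 17 dpa minus that at 12 dpa was 5.91, and at 28 dpa minus 12 dpa it was 7.01. For Bglap2 these differences were 6.01 and 7.24. For Spp1 they were 4.95 and 5.81, for Dmp1 4.29 and 4.31, and for Sfrp4 3.34 and 3.66. Col13a1 differed by 2.92 between 28 and 12 dpa. Sfrp2 went the other way, at -2.69 and -3.36.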

How the results depend on the processing

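No paired analysis was possible because each group is 1 library. Summed UMIs were fewest at 12 dpa and median depth lowest at 28 dpa, and no alternative replaces a replicate.

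In the order unamputated, 12, 17 and 28 dpa, the share of kept cells was 2.99%, 0.720%, 4.31% and 2.74% with a marker sum of at least 8. With 2 of 3 markers it was 2.54%, 0.562%, 4.13% and 2.53%. Of stromal cells it was 9.23%, 3.07%, 10.9% and 5.64%, and of placed cells 20.8%, 6.64%, 21.0% and 13.0%. It was 2.07%, 0.547%, 3.81% and 2.95% with an Ibsp UMI, 2.69%, 1.09%, 4.49% and 2.94% with the sum 2 times each other sum, and 2.99%, 0.921%, 5.61% and 3.45% thinned. With the stricter cell filter the unamputated, 17 and 28 dpa shares were 3.75%, 6.04% and 3.74%, and without doublets the shares were 3.03%, 1.55%, 5.41% and 3.22%. The 28 dpa share thus passed the unamputated one with an Ibsp UMI, the 2-times rule, thinning and doublets removed.

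At 1.5-fold the genes higher and lower numbered 281 and 647 at 12 dpa, 154 and 248 at 17 dpa, 261 and 725 at 28 dpa, and 397 and 489 for 28 against 12 dpa. With an Ibsp UMI 130 were higher at 12 dpa and 62 at 17 dpa. Thinned, 145 were higher and 370 lower at 12 dpa. A minimum of 20 CPM gave 271 lower at 12 dpa. A minimum of 100 CPM gave 88 lower at 12 dpa, 23 higher and 47 lower at 17 dpa, 131 lower at 28 dpa and 137 higher for 28 against 12 dpa. Median-of-ratios scaling gave 139 higher and 133 lower at 28 dpa. The cause of these differences was not tested.

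Over 16 settings 3563 of 3585 alternative values of 239 gene results kept their sign, as did 846 of 900 values of 60 list medians. Changing the gene minimum or the amount added to CPM cannot change the sign of a gene's ratio, so part of the gene count was fixed in advance. The genes were also chosen because they passed 2-fold or lay furthest out in these same data. The gene count is therefore not a measure of how stable the results are. In osteocalcin-rich cells alone the log2 ratio at 17 dpa turned to -0.0519 for Bglap, which is set by the threshold and not read, 1.17 for Mmp9, 0.33 for Adgrl3, 1.03 for Col4a1, 0.27 for Kcnc2, 0.49 for Hist1h2ae, -0.17 for Sfrp4, 0.53 for Birc5, 0.27 for Cenpf and -0.14 for Socs3. At 28 dpa it turned to 0.49 for Col4a1, 0.0256 for Kcnc2, -0.11 for Dmp1, -0.15 for Car3, -0.34 for Col13a1, 0.76 for Acta2, -0.0859 for Wnt16, 1.42 for Mki67, 1.04 for Top2a, 1.08 for Birc5, 0.43 for Cenpf and 0.63 for the proliferation median. The proliferation median there rests on 2 tested genes, of which 0 passed 2-fold. The bone matrix median there, set in part by the osteocalcin genes that choose the cells, was -0.193 at 17 dpa and -0.108 at 28 dpa. For 28 against 12 dpa Col14a1 turned to 0.0284 with an Ibsp UMI, and the BMP median to -0.13 at a minimum of 100 CPM, which left 7 genes tested.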
